A study of Mus musculus with 8 samples.

Results

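The genes described here encode the epidermal growth factor (EGF) receptor Egfr, its relatives Erbb2 and Erbb3, 5 ligands (Ereg, Tgfa, Hbegf, Epgn and Btc) and the receptor inhibitor Errfi1. They were measured by 19 probe sets whose only gene symbol in the platform annotation is one of these 9 names, out of 45141 probe sets on the array. Each gene was represented by its probe set with the highest mean over the 8 arrays, which gave 9 genes of the 17097 genes in the data.

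The RNA came from basal keratinocytes of the back skin of CD1 mice, an outbred strain. Skin that had been stretched by a force was taken at day 4 of expansion (EXPD4, 3 mice). A second group (TPA, 2 mice) had received 12-O-tetradecanoylphorbol-13-acetate, an activator of protein kinase C in common use as a skin tumour promoter, and the control group (CTRL, 3 mice) was untreated. Sorting on ITGA6 and on the absence of CD34 gave 300 cells for each array, and each array held the cells of 1 mouse. The gate takes in the infundibulum of the follicle beside the interfollicular epidermis. The labels used here give no age, no sex and neither the dose nor the schedule of TPA. RNA from so few cells was amplified before hybridisation, and the number of arrays limits the precision.

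EGF family ligands are made as membrane-anchored precursors, and proteases of the ADAM family cut most of them free. A ligand that binds Egfr drives it into pairs with itself or with Erbb2 or Erbb3, and the phosphorylated tails recruit adaptors that switch on the RAS to ERK cascade, PI3-kinase and STAT3. Erbb2 has no known ligand of its own, and Erbb3 binds neuregulins and has little kinase activity. In epidermis the pathway promotes basal cell proliferation, survival and migration, and keratinocytes make several of the ligands themselves. Errfi1 (also called Mig-6) is induced by the pathway, binds the kinase domain of Egfr and dampens its signal.

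Values are signals of the robust multi-array average (RMA) method on the log2 scale, so that a difference of 1 is a 2-fold change. Levels are given array by array or as mean ± SD (n = 3 in control, 3 in expanded and 2 in TPA mice). Differences carry the SE of a limma model on the log2 scale. A difference passed the test where its p-value, adjusted by Benjamini-Hochberg over the 17097 genes, was under 0.05. A background limit was set for each array, between 6.40 and 6.56, at the 95th percentile of 77 chemosensory receptor genes (smell, pheromone and trace amine receptors). Where all arrays of the dimmer group lay under it, the difference is a lower bound counted from the limit.

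The basal keratin genes Krt5 and Krt14 had control means of 13.28 ± 0.05 and 13.30 ± 0.04, and Cd34 lay under the background limit on every array, as the gate requires. The genes listed here for their induction by phorbol ester or wounding ran against the labels. Odc1, ornithine decarboxylase, was at 11.34 ± 0.02 in the arrays labelled control, 9.84 ± 0.14 in those labelled expanded and 8.99 ± 0.09 in those labelled TPA. All 5 measured genes of the stress and phorbol ester list (Krt6a, Krt6b, Krt16, Odc1 and Sprr1b) were lower in the arrays labelled TPA than in those labelled control, although Krt6b was at 6.47 and 11.27 on the TPA arrays and its call was lost without any 1 of the control arrays (adjusted p up to 0.0813). Other genes did not all run this way. Of 11 measured genes listed as outputs or feedback inhibitors of ERK, 4 were higher and 3 lower in TPA than in control arrays (63.6%, beside 20.8% of all genes). Errfi1 was higher in the TPA arrays. Every group name below is the name on the label, which these genes put in doubt without settling it. Were the control and TPA labels exchanged, each difference between these groups would turn round and the comparisons of the expanded arrays with them would trade places. Across genes, which are not independent replicates, r was 0.990 to 0.995 between arrays sharing a group and 0.962 to 0.987 between groups.

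Promoter sequence is shown for Epgn, a ligand whose signal differed from control in both other groups, and for Errfi1, the inhibitor that was higher in the TPA arrays. Both are the 250 bases upstream of a RefSeq start in the GRCm38.p6 assembly, on the + strand (chr5:91027267-91027516 for Epgn and chr4:150854820-150855069 for Errfi1). Capitals mark matches to the TATA box (TATAAA), the cyclic AMP response element (TGACGTCA) and the GC box (GGGCGG or its complement).
Epgn: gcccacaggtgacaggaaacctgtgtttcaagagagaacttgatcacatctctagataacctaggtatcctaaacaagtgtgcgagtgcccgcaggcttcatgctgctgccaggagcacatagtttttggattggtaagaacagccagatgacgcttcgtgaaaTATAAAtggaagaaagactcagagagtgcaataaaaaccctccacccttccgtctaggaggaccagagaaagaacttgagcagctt
Errfi1: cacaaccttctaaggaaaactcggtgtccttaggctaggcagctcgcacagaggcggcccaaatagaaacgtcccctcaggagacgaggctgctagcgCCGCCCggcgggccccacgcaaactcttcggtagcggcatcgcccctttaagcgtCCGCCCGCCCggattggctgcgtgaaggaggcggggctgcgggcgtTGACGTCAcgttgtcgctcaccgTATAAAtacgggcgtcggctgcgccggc

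The Errfi1 window held 1 cyclic AMP response element 51 bases upstream of the start, 1 TATA box at 28 bases and 3 GC boxes, of which 2 overlap. The Epgn window held 1 TATA box, 86 bases upstream. Of 32851 RefSeq promoter windows of 300 bases, 1.79% held TGACGTCA, 13.6% held TATAAA and 35.7% held GGGCGG, all on either strand. The phorbol ester response element of AP-1 (TGANTCA, either strand, 7.81% of windows) had no match in the 7 windows of the 6 genes searched, Egfr, Erbb2, Tgfa, Epgn, Btc and Errfi1. Egfr had 1 GC box and Tgfa had 2, and a second Errfi1 window, at an upstream start, had no match to any of the 4 motifs. A match describes the letters and does not show a site in use. Matches of different motifs did not overlap.

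In the expanded arrays 4 of the 9 genes passed the test against control, and all 4 were ligands with a lower signal: Tgfa, Ereg, Epgn and Hbegf. Over all genes, 11.5% passed in this comparison, with 5.78% lower and 5.69% higher in the expanded arrays. The receptors and Errfi1 did not pass. In the arrays labelled TPA 6 of 9 genes passed against control, with the same 4 ligands lower and Egfr and Errfi1 higher. There 20.8% of all genes passed, 10.6% lower and 10.2% higher. The median log2 difference of the 9 genes was -0.61 in expanded against control and -0.62 in TPA against control, beside 0.0051 and -0.028 over all genes. Both medians were the value of Btc, a gene below background on all expanded and TPA arrays, and with Ereg and Btc at their bounds they were -0.067 and -0.072. Both comparisons use the same 3 control arrays, so their values are not independent of each other.

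**Figure D1:**
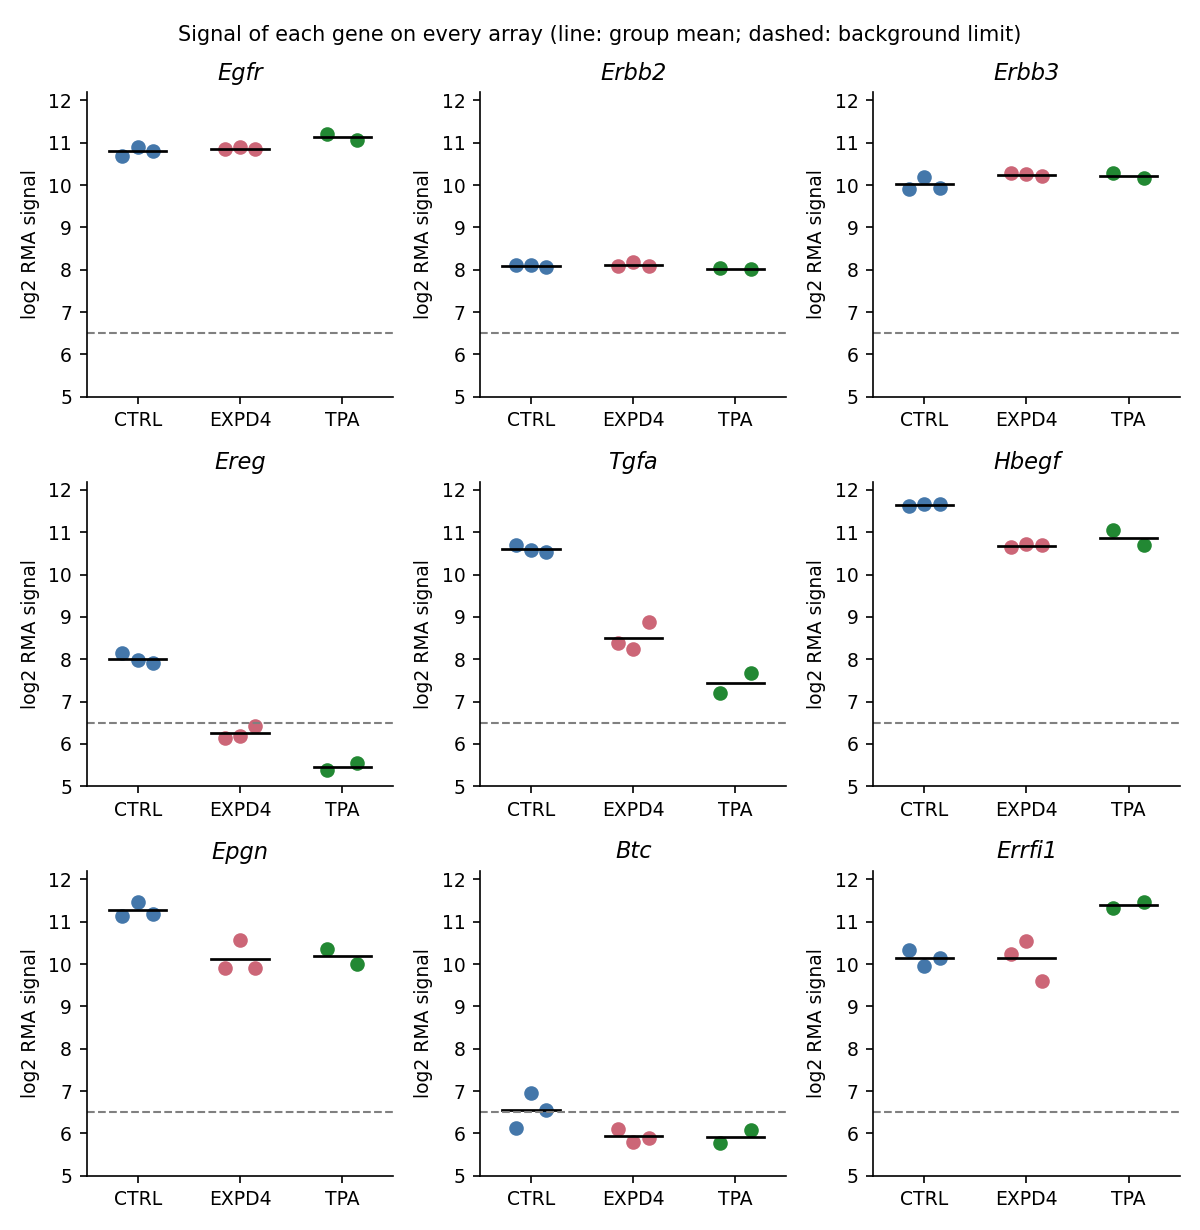
Log2 RMA signal (vertical axis) of the 9 genes on each array of the groups labelled CTRL, EXPD4 and TPA (horizontal axis). Points are arrays, black lines are group means and the dashed line is the background limit averaged over arrays; Tgfa steps down from CTRL to EXPD4 to TPA, Ereg is above the limit in CTRL alone, Hbegf and Epgn sit lower in both other groups, and Errfi1 is high in TPA alone.

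Tgfa encodes transforming growth factor alpha, a ligand that keratinocytes make for their own receptor. Its signal was 10.69, 10.59 and 10.53 in the control arrays, 8.39, 8.25 and 8.89 in the expanded arrays and 7.19 and 7.67 in the TPA arrays. The 3 groups did not overlap, and each control array was brighter than every other array. The expanded arrays were lower than control by a log2 difference of -2.10 ± 0.18, a 4.28-fold drop (limma, adjusted p = 0.000215). This was the 28th largest fall among all genes in that comparison. The TPA arrays were lower by -3.18 ± 0.20, or 9.04-fold (adjusted p = 1.7e-05), the 36th largest fall. The expanded arrays were higher than the TPA arrays by 1.08 ± 0.20 (adjusted p = 0.0168), a call that was lost without TPA replicate 1 (0.84, adjusted p = 0.0964). Leaving out a TPA array leaves that group with 1 array, which is then assumed to vary like the arrays of the other groups.

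Tgfa has 3 probe sets, and they moved by unlike amounts. In expanded against control the leading 1421942_PM_s_at differed by -2.10 ± 0.18, the dimmest, 1421943_PM_at, by -1.61 ± 0.18 and the third, 1450421_PM_at, by -0.71 ± 0.14. In TPA against control the leading probe set differed by -3.18 ± 0.20 and the third by -0.81 ± 0.15. The dimmest lay under the background limit on both TPA arrays, and control exceeded it by at least 2.57. All 3 passed in both comparisons when each probe set was tested by itself, over 28898 probe sets. Between expanded and TPA arrays the third probe set did not pass (0.10 ± 0.15, adjusted p = 0.809), so the step between these groups was seen in 2 of 3 probe sets. For the dimmest the step was at least 0.96 (adjusted p = 0.00593).

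Ereg encodes epiregulin, a ligand of Egfr and Erbb4 that acts as a keratinocyte growth factor. It was at 8.15, 7.98 and 7.90 in the control arrays, above the background limit on each. In the expanded arrays it was at 6.14, 6.19 and 6.43, and in the TPA arrays at 5.37 and 5.55, all under the limit. The control arrays did not overlap with the others, and no level can be given outside them. Ereg was therefore lower by at least 1.54 in the expanded arrays (at least 2.90-fold, adjusted p = 5.16e-05) and by at least 1.53 in the TPA arrays (at least 2.89-fold, adjusted p = 4e-06). The measured log2 differences were -1.76 ± 0.10 and -2.55 ± 0.12. The expanded and TPA arrays also passed the test against each other (adjusted p = 0.00703), but with both groups under the limit the size of that difference has no meaning.

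Hbegf encodes heparin-binding EGF-like growth factor, which is tied to keratinocyte migration in wounds. Its signal was 11.62, 11.67 and 11.67 in the control arrays, 10.65, 10.72 and 10.69 in the expanded arrays and 11.05 and 10.70 in the TPA arrays. Control arrays were again brightest, and the other groups overlapped. The expanded arrays were lower than control by -0.97 ± 0.09, or 1.95-fold (adjusted p = 0.000436). The TPA arrays were lower by -0.78 ± 0.10, or 1.71-fold (adjusted p = 0.000953). Expanded and TPA arrays differed by -0.19 ± 0.10 (95% interval -0.42 to 0.047, adjusted p = 0.387). The second Hbegf probe set gave -0.86 ± 0.08 in expanded and -0.79 ± 0.09 in TPA against control, and both passed.

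Epgn encodes epigen, an epithelial ligand of Egfr, and lies beside Ereg in a cluster of EGF family genes that also holds Areg and Btc. Areg was not analysed here. Epgn was at 11.15, 11.47 and 11.19 in the control arrays, 9.91, 10.57 and 9.91 in the expanded arrays and 10.36 and 10.01 in the TPA arrays. Expanded replicate 2 was the brightest array outside the control group, and the expanded and TPA arrays overlapped. The fall was -1.14 ± 0.19 in the expanded arrays, or 2.21-fold (adjusted p = 0.00567). It was -1.08 ± 0.21 in the TPA arrays, or 2.12-fold (adjusted p = 0.00705). The second call was lost without TPA replicate 2 (-0.91, adjusted p = 0.0509). Expanded and TPA arrays differed by -0.057 ± 0.21 (95% interval -0.54 to 0.43).

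Btc encodes betacellulin, a ligand of Egfr and Erbb4. It lay near the background limit, at 6.13, 6.95 and 6.55 in the control arrays, of which 2 were above the limit. The expanded arrays, at 6.09, 5.81 and 5.89, and the TPA arrays, at 5.76 and 6.08, were all under it. Control replicate 1 stood close to the arrays of the other groups. Counted from the limit, the bound for Btc was 0.067 below the control mean in expanded (1.05-fold) and 0.063 below it in TPA (1.04-fold). Control replicate 1 was itself under the limit, so a fall of this size is not assured. The measured log2 differences, -0.61 ± 0.19 (adjusted p = 0.0812) and -0.62 ± 0.22 (adjusted p = 0.0774), did not pass. Without control replicate 1 both passed (adjusted p = 0.0196 and 0.0156), with the arrays of the other groups still under the limit. The second Btc probe set was under the limit on every array.

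**Figure D2:**
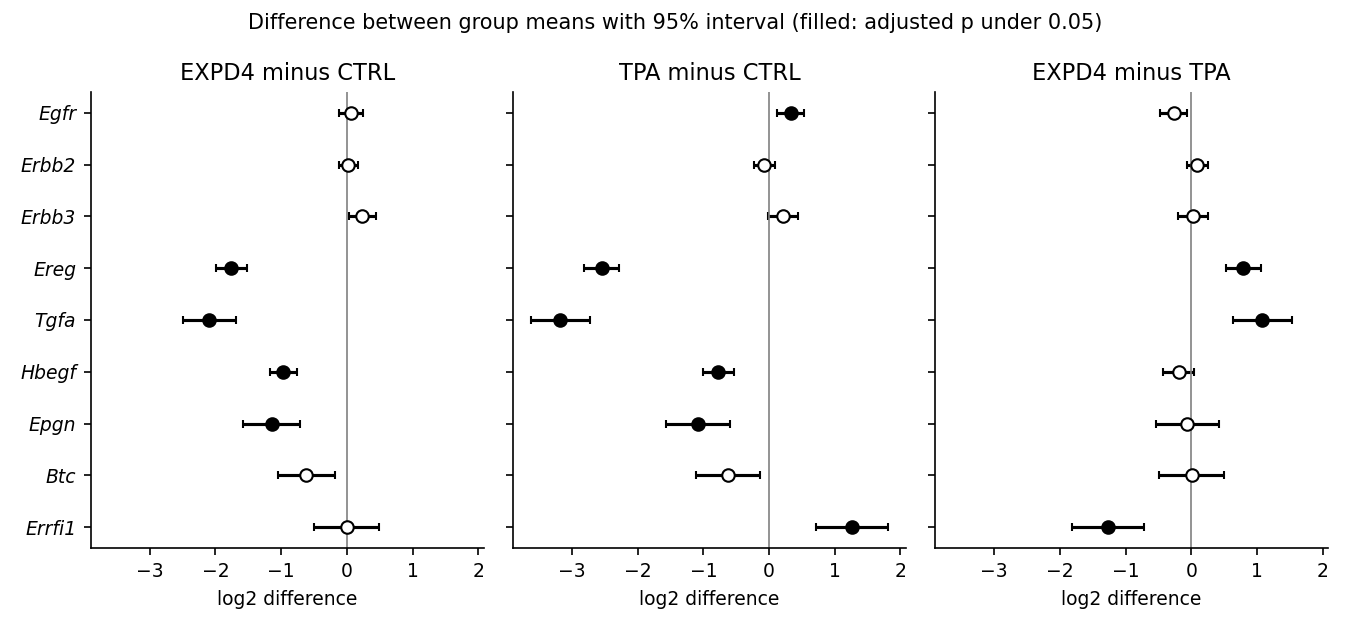
Log2 difference between group means (horizontal axis) of the 9 genes (vertical axis) for EXPD4 minus CTRL, TPA minus CTRL and EXPD4 minus TPA. Bars are 95% intervals of the limma model and filled points have an adjusted p under 0.05; Tgfa lies at -2.10, -3.18 and 1.08 in the 3 panels, and Errfi1 at -0.0025, 1.26 and -1.26. Ereg and Btc are drawn at their measured differences, not at their bounds.

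The comparison of expanded with TPA arrays uses no control array. Among the ligands Tgfa passed it with a size that could be given, Ereg passed with both groups below background, and Hbegf, Epgn and Btc did not pass. With Errfi1, 3 of 9 genes passed in this comparison, 2 higher and 1 lower in the expanded arrays. Over all genes 5.98% passed, 3.16% higher and 2.81% lower. Leaving out TPA replicate 1 left 1 of the 9 genes, which was Ereg.

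Egfr, the receptor that binds these ligands, was at 10.69, 10.90 and 10.80 in the control arrays, 10.85, 10.89 and 10.84 in the expanded arrays and 11.20 and 11.06 in the TPA arrays. The TPA arrays were brighter than all others, and the control and expanded arrays overlapped. Egfr was higher in the TPA arrays than in control by 0.33 ± 0.09, or 1.26-fold (adjusted p = 0.0297). The call was lost without control replicate 1 (0.27, adjusted p = 0.0671), control replicate 3 (0.33, adjusted p = 0.0696) or TPA replicate 1 (0.26, adjusted p = 0.179). In the expanded arrays the difference from control was 0.062 ± 0.079 (95% interval -0.12 to 0.24, adjusted p = 0.738). Expanded and TPA arrays differed by -0.27 ± 0.09 (adjusted p = 0.13).

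Egfr has 6 probe sets, all above the background limit on the 8 arrays. In TPA against control they were higher by 0.19 to 0.53, and 4 of the 6 passed when tested by themselves. The largest difference by limma was that of 1432647_PM_at (0.53 ± 0.14, adjusted p = 0.0266), followed by 1460420_PM_a_at (0.46 ± 0.10, adjusted p = 0.0124). The former was the dimmest of the 6 and near the limit, at 6.64, 6.94 and 6.80 in control and 7.53 and 7.11 in TPA arrays. In expanded against control the 6 lay between -0.20 and 0.085, with differences of both signs, and none passed by limma (the lowest adjusted p was 0.232). The single Egfr probe set that passed between expanded and TPA arrays was 1460420_PM_a_at (-0.54 ± 0.10, adjusted p = 0.0198).

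**Figure D3:**
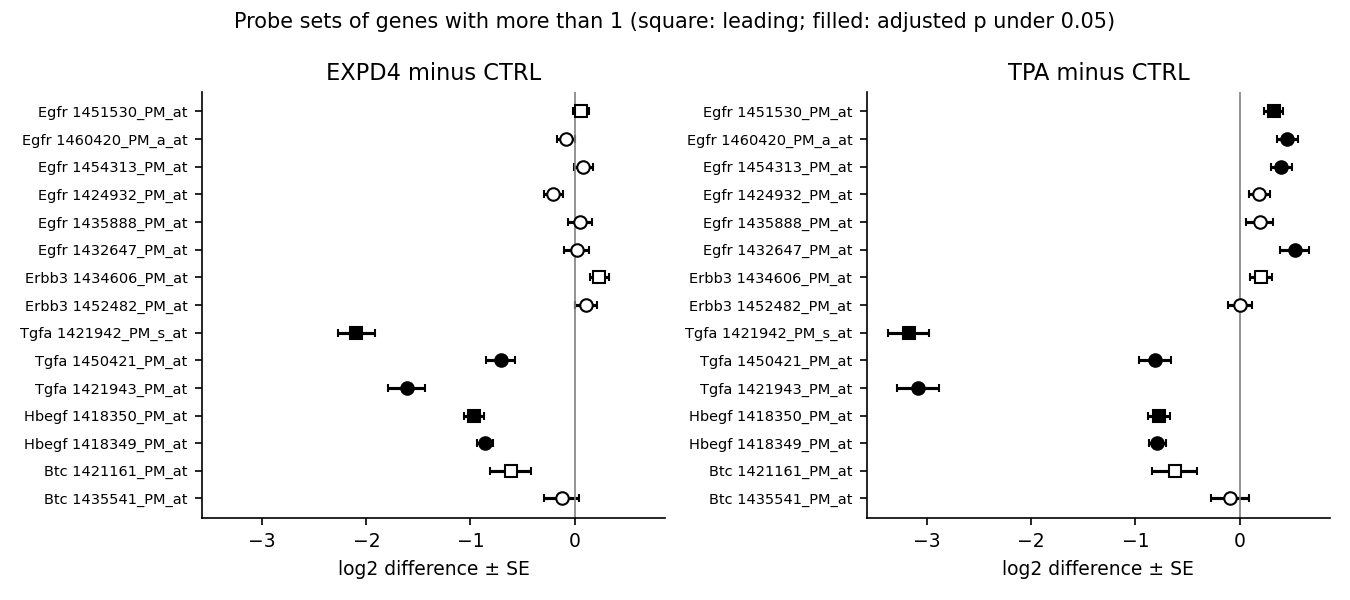
Log2 difference (horizontal axis, ± SE) of each probe set of the 5 genes that have more than 1, for EXPD4 minus CTRL and TPA minus CTRL. Squares are the leading probe sets and filled symbols passed the test over probe sets; the third Tgfa probe set, 1450421_PM_at, shows a smaller fall (-0.71 and -0.81) than the other 2, and all 6 Egfr probe sets lie above 0 in TPA minus CTRL.

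Erbb2, the partner receptor without a ligand, had nearly equal signals on all arrays. It was at 8.11, 8.11 and 8.07 in the control arrays, 8.10, 8.18 and 8.09 in the expanded arrays and 8.03 and 8.02 in the TPA arrays. The difference from control was 0.024 ± 0.063 in expanded (95% interval -0.12 to 0.17) and -0.072 ± 0.071 in TPA (95% interval -0.23 to 0.089). Both intervals exclude a change of 0.25 or more on the log2 scale.

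Erbb3, the partner with little kinase activity, was at 9.91, 10.19 and 9.94 in the control arrays, 10.28, 10.26 and 10.20 in the expanded arrays and 10.28 and 10.16 in the TPA arrays. Each expanded array was brighter than each control array, but control replicate 2 came close. The difference from control was 0.23 ± 0.09 in expanded (95% interval 0.030 to 0.44, adjusted p = 0.148) and 0.21 ± 0.10 in TPA (95% interval -0.022 to 0.43, adjusted p = 0.203). Neither passed. The second Erbb3 probe set gave 0.11 ± 0.10 and 0.0047 ± 0.12. Erbb3 is also known from melanocytes and Schwann cells. Of 8 melanocyte markers 0 passed between expanded and control by limma, with 0 at an unadjusted p under 0.05. In TPA 1 was higher, Mitf, which lay under the limit on every array, and 2 had an unadjusted p under 0.05. The other was Pmel, at 7.42 ± 0.45 in control and 8.05 ± 0.10 in TPA arrays, above the limit on each (0.63 ± 0.23, adjusted p = 0.0876). Their summed signal was 8.96 to 9.86 in control, 9.21 to 9.34 in expanded and 9.39 to 9.48 in TPA arrays. Tyrp1 and Mlana were each above the limit on 1 control array, at 7.77 and 6.64, and on no expanded or TPA array. Of 4 measured Schwann cell markers 0 passed in any comparison by limma, with 0 at an unadjusted p under 0.05. Their summed signal was 9.29 to 9.49, 9.35 to 9.47 and 9.31 to 9.41 in the same order. Over all genes 11.5% passed in expanded against control, 20.8% in TPA against control and 5.98% between expanded and TPA arrays. Counts of 0 or 1 among so few markers are near these shares.

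Errfi1, the feedback inhibitor of Egfr, did not follow the ligands. It was at 10.33, 9.96 and 10.13 in the control arrays, 10.25, 10.56 and 9.61 in the expanded arrays and 11.33 and 11.48 in the TPA arrays. Both TPA arrays were brighter than every other array, and the expanded arrays spread around the control arrays, with an SD of 0.48. In the TPA arrays Errfi1 was higher than in control by 1.26 ± 0.24, or 2.40-fold (adjusted p = 0.00623), the 216th largest rise. In the expanded arrays the difference was -0.0025 ± 0.22 (95% interval -0.49 to 0.49). Expanded arrays were lower than TPA arrays by -1.26 ± 0.24 (adjusted p = 0.0195), a call that was lost without either TPA array (adjusted p = 0.0717 without replicate 1 and 0.0795 without replicate 2).

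Some markers of other cell states also differed from control. Over all genes 11.5% passed in expanded and 20.8% in TPA arrays. The counts of the macrophage and neutrophil list, and those of the Langerhans cell and fibroblast lists in TPA arrays, were near these shares. Of 6 endothelial and 5 measured sebaceous gland genes 0 passed against control in either group, but these lists varied between arrays of a group. The summed endothelial signal was 8.89 to 10.80 in control, 9.07 to 9.80 in expanded and 8.70 to 8.95 in TPA arrays. The summed sebaceous gland signal was 11.25 to 11.84, 11.46 to 12.08 and 11.49 to 12.70. Of 7 measured suprabasal genes 4 were higher than control with expansion and 4 with TPA (Krt1, Krt10, Krt2 and Krtdap in both). The call of Krt1 in TPA was lost without control replicate 3 or without either TPA array, with adjusted p up to 0.136. Ivl went the other way without passing (-0.33 ± 0.13 and -0.48 ± 0.15, adjusted p = 0.168 and 0.0532), and Lor was under the limit on every array. The summed suprabasal signal was 13.42 to 13.90 in control, 14.79 to 14.90 in expanded and 14.76 to 14.87 in TPA arrays. Of 9 macrophage and neutrophil markers 1 was lower in expanded (Cd14) and 2 in TPA (Cd14 and S100a8, a gene that keratinocytes also express). Their signal, summed on the linear scale and given as log2, was 11.01 to 11.10, 10.50 to 10.54 and 9.24 to 9.56. S100a8 had the highest mean of the 9 in each group, at 10.37, 9.86 and 7.12. This gene weighed most in the control and expanded sums. Ptprc, Adgre1, Csf3r and Itgam were under the background limit on every array. Cd68 and Csf1r were above it on all 8 arrays and did not pass, with Cd68 at 7.52, 7.11 and 7.01 and Csf1r at 6.97, 6.73 and 6.90 in the 3 groups. Lyz2 varied in control, from 5.36 to 8.25 with 2 of 3 arrays above the limit, and was under it on all expanded and TPA arrays. Its measured differences from control, -1.64 ± 0.58 and -1.78 ± 0.65, did not pass by limma (adjusted p = 0.118 and 0.0926). Of 5 Langerhans cell genes 2 were lower in expanded (H2-Ab1 and Epcam) and 1 in TPA (H2-Ab1), with Cd207 under the limit throughout. Cd74 (7.65, 7.40 and 7.53 in the 3 groups) and H2-Aa (7.53, 7.59 and 7.55) were above the limit on all arrays and did not pass. The summed Langerhans cell signal was 10.45 to 11.04, 9.67 to 9.96 and 10.12 to 10.29. Of 6 fibroblast genes 1, Dcn, was higher in TPA (1.69), with summed signals of 8.66 to 9.04, 8.82 to 8.95 and 9.32 to 9.53. Dcn had the highest mean of the 6 in expanded and TPA arrays, at 7.55 and 8.69. Col1a1, above the limit on all arrays, went the other way without passing, at 7.36, 6.77 and 6.68 in the 3 groups. Its difference in TPA was -0.68 ± 0.31 (limma, adjusted p = 0.174). Col3a1 did not pass either (6.46, 6.48 and 6.36), and Col1a2, Pdgfra and Lum were under the limit on every array. Itga6, the gate antigen, fell from 12.27 ± 0.04 in control to 11.80 ± 0.04 in expanded and 11.58 ± 0.09 in TPA arrays (adjusted p = 0.00275 and 0.000323). The part of these in the ligand differences was not tested. In sorted pools, fewer cells of a type and less RNA per cell cannot be told apart.

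The genes most like members that passed a test were sought by Pearson correlation over the 8 arrays, among 10580 other genes that were above background on every array of at least 1 group. These arrays fall into 3 groups, so that a high r mostly says that the group means step in the same way. Tgfa was most like Atg5 (r = 0.998), Odc1 (0.996) and Ereg (0.996). For Ereg no likeness is given, since 5 of its 8 values, which also enter its r with Tgfa, lay under the limit. For Hbegf they were Nt5e (0.987), Ptpre (0.984) and Cdkn1a (0.984), and for Epgn Chsy1 (0.986), Sec24c (0.975) and Tmem98 (0.974). Ptpre and Chsy1 showed the same lower plateau in both groups, with Ptpre at 9.67, 8.07 and 8.21 and Chsy1 at 9.13, 8.25 and 8.27 in control, expanded and TPA arrays. Egfr was most like Eppk1 (0.977), Grhl2 (0.964) and Atp8a1 (0.962). Errfi1 was most like Npff (0.996), Fam71a (0.979) and Zfp207 (0.977).

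Of 74 other pathway genes in 6 lists, 66 were measured, and 12 passed in expanded against control, 3 higher and 9 lower (18.2%, beside 11.5% of all genes). In TPA against control 25 passed, 8 higher and 17 lower (37.9%, beside 20.8%). Between expanded and TPA arrays 10 passed, 5 higher and 5 lower in the expanded arrays (15.2%, beside 5.98%). The last count was 5 without either TPA array and 6 without expanded replicate 2 or 3. The median over the 66 genes was -0.089, -0.15 and 0.048, beside 0.0051, -0.028 and 0.032 over all genes.

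**Figure D4:**
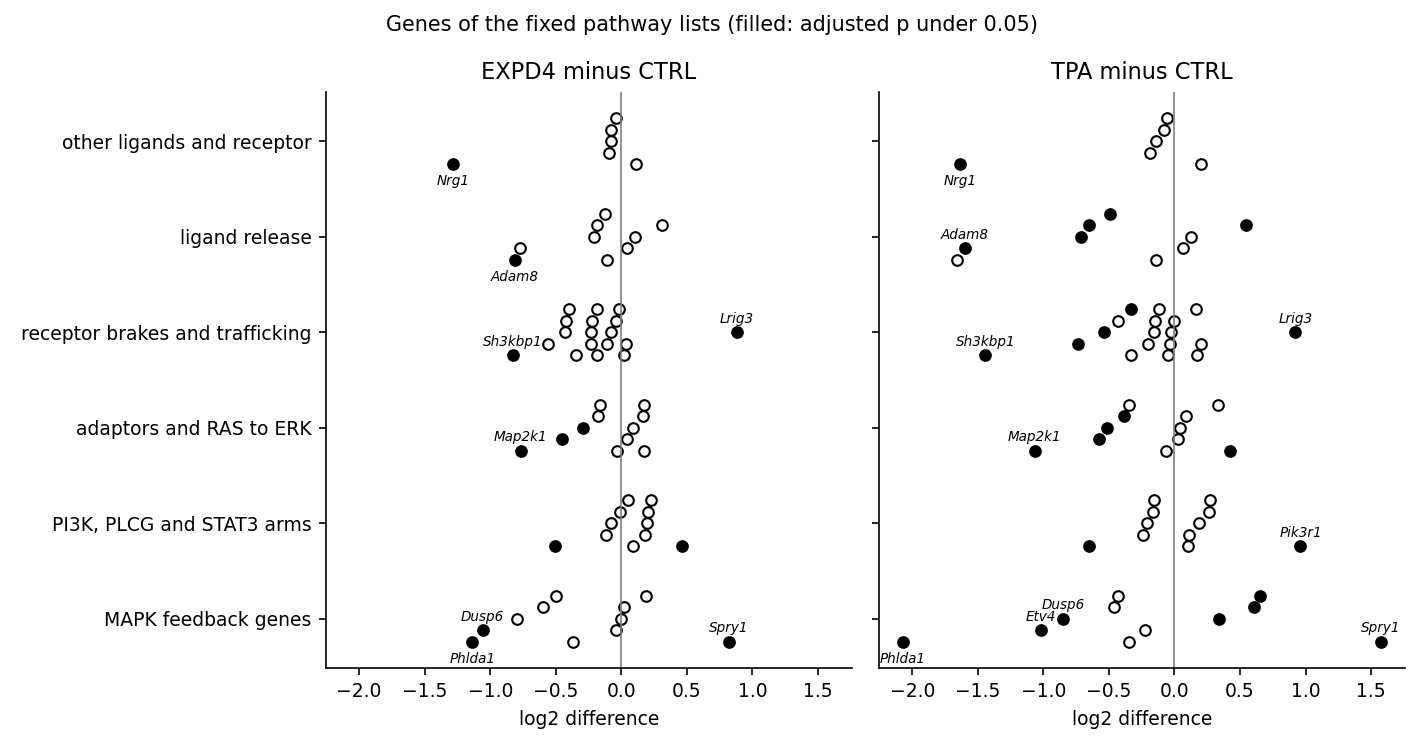
Log2 difference (horizontal axis) of each measured gene in 6 lists of the EGF receptor pathway (vertical axis) for EXPD4 minus CTRL and TPA minus CTRL. Filled points passed the test and those beyond a log2 difference of 0.75 are named; Nrg1, Adam8, Sh3kbp1, Map2k1, Phlda1 and Dusp6 lie to the left and Lrig3 and Spry1 to the right in both panels.

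The list of other ligands, with the receptor Erbb4, had 6 measured genes. In each comparison with control 0 were higher and 1 lower (16.7%, beside 11.5% of all genes in expanded and 20.8% in TPA arrays). It was Nrg1, a neuregulin, which binds Erbb3 and Erbb4. Its mean was 8.86 in control, 7.58 in expanded and 7.22 in TPA arrays. The differences were -1.28 ± 0.17 (adjusted p = 0.00216) and -1.63 ± 0.20 (adjusted p = 0.00053). Of the 6 genes 3 were under the background limit on every array.

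Of 9 genes for ligand release, 0 were higher and 1 lower in expanded arrays (11.1%, beside 11.5% of all genes). In TPA arrays 1 was higher and 4 lower (55.6%, beside 20.8% of all genes). Without TPA replicate 1 the 4 became 2, since Adam9 and Rhbdl2 no longer passed. Adam8, a metalloprotease, was lower than control by -0.81 ± 0.12 with expansion and by -1.60 ± 0.14 with TPA. Adam10, a sheddase of Btc and of EGF itself, was lower in TPA than in control (-0.65 ± 0.10, adjusted p = 0.00215). Rhbdf1, an inactive rhomboid that helps Adam17 mature, was higher in TPA (0.54 ± 0.07, adjusted p = 0.000888). It was also higher in TPA than in expanded arrays (adjusted p = 0.00599). Adam17, the main sheddase of Tgfa, Ereg and Hbegf, was singled out for this role after its values were seen. It differed from control by 0.10 ± 0.09 in expanded and 0.062 ± 0.097 in TPA arrays, and passed in neither.

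Of 18 receptor brakes and trafficking genes, 1 was higher and 1 lower in expanded arrays (11.1%, beside 11.5% of all genes). In TPA arrays 1 was higher and 4 lower (27.8%, beside 20.8% of all genes). Lrig3, a leucine-rich repeat protein of the Lrig family, was higher by 0.88 ± 0.09 in expanded (adjusted p = 0.000529) and 0.92 ± 0.10 in TPA arrays (adjusted p = 0.000297). Sh3kbp1, an adaptor that joins Cbl in taking up Egfr from the surface, was lower by -0.83 ± 0.12 and -1.44 ± 0.14. Hgs, which sorts ubiquitinated receptors in endosomes, was lower in TPA (-0.53 ± 0.14, adjusted p = 0.027). That call was lost without any 1 of the control arrays or TPA replicate 1, with adjusted p up to 0.183. The count of 4 lower genes fell to 1 without control replicate 2 or 3 or TPA replicate 1, and to 2 without expanded replicate 3.

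Of 11 adaptors and members of the RAS to ERK cascade, 0 were higher and 3 lower in expanded arrays (27.3%, beside 11.5% of all genes). In TPA arrays 1 was higher and 4 lower (45.5%, beside 20.8% of all genes). Map2k1, which encodes the kinase MEK1, had a mean of 10.44 in control, 9.67 in expanded and 9.37 in TPA arrays. Its differences from control were -0.77 ± 0.12 (adjusted p = 0.0048) and -1.07 ± 0.14 (adjusted p = 8e-04). Grb2, the adaptor that links receptors to SOS, was lower by -0.45 ± 0.08 and -0.52 ± 0.09. Map2k2, which encodes MEK2, passed in TPA (-0.58 ± 0.09). Nras passed in expanded arrays (-0.29 ± 0.07), a call lost on removal of each of 5 arrays in turn (control replicate 2 or 3 or any expanded array), with adjusted p up to 0.109. In TPA arrays Nras was lower by -0.39 ± 0.08 (adjusted p = 0.00822), a call kept whichever array was left out. The higher gene in TPA, Araf, no longer passed in 6 of the 8 fits that left out an array (any 1 control or TPA array or expanded replicate 2).

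Of 11 genes of the PI3-kinase, PLCG and STAT3 arms, 1 was higher and 1 lower in each comparison with control. That is 18.2%, beside 11.5% of all genes in expanded and 20.8% in TPA arrays. Src, a kinase that works with Egfr, was lower by -0.51 ± 0.07 in expanded and -0.65 ± 0.08 in TPA arrays. Pik3r1, the regulatory subunit of PI3-kinase, was higher by 0.46 ± 0.10 and 0.96 ± 0.11. Its call in the expanded arrays was lost without control replicate 1 or 3 (adjusted p up to 0.0564).

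Genes listed as outputs or feedback inhibitors of ERK went both ways. Of 11 measured, 1 was higher and 2 lower in expanded arrays (27.3%, beside 11.5% of all genes). In TPA arrays 4 were higher and 3 lower (63.6%, beside 20.8% of all genes). Spred2, 1 of the 4 higher genes, no longer passed in 7 of the 8 fits that left out an array (any 1 control or expanded array or TPA replicate 2). Dusp6 and Etv4 no longer passed without TPA replicate 2 either. The counts in TPA arrays were 3 and 2 without control replicate 2 or 3, and 3 and 3 without control replicate 1 or any 1 expanded array. Phlda1 was lower by -1.14 ± 0.16 and -2.07 ± 0.18, and Dusp6, the ERK phosphatase, was lower by -1.06 ± 0.18 in expanded and -0.85 ± 0.20 in TPA arrays. The latter call was lost without control replicate 3 or TPA replicate 2 (adjusted p up to 0.0875). Spry1, a Sprouty inhibitor, was higher by 0.82 ± 0.16 and 1.57 ± 0.18. Dusp1, a phosphatase of several MAP kinases, was like Errfi1 higher in TPA than in control (0.61 ± 0.09, adjusted p = 0.00223), with a mean of 12.01 in both control and expanded arrays and 12.61 in TPA arrays. Spred1, an inhibitor of RAS to RAF signalling, was lower in expanded than in TPA arrays (-0.69 ± 0.10, adjusted p = 0.00757).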

How the data were processed

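Basal cells of 8 mice were hybridised to Affymetrix arrays, 1 array per mouse, so that p-values measure the spread between mice, in groups of 3 control, 3 expanded and 2 TPA mice taken from the sample titles. The deposited values are log2 signals per probe set made with RMA, per the submitters' processing notes, which give no version. No raw scan, detection call or scan date was used, and no batch could be tested. Of 45141 probe sets, 28898 had 1 gene symbol and 551 several in the platform annotation; the brightest probe set stood for each of 17097 genes. Symbols were updated by gene identifier, and 161 could not be matched. The table held 0 columns of other samples.

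Groups were compared with limma 3.58.1 (R 4.3.3) in 1 model over all 8 arrays, with 5 residual and 3.54 prior degrees of freedom and Benjamini-Hochberg adjustment over all genes. The fit was tested on simulated data. The 9 genes, the lists and the background limit were chosen with earlier results of these data known. Named genes are the 9 members, up to 3 genes per list and comparison with the smallest p among those that passed, the 3 genes most like each member that passed (not for Ereg), gate, label check and marker genes. Adam17, and genes given for an opposite sign or a lost call, were added after their values were seen. Promoter sequences come from RefSeq (GRCm38.p6), whose table matched 6 of 9 genes; Ereg, Erbb3 and Hbegf are without an entry used here. The main model did not use replicate numbers as pairs. Residuals of same-numbered arrays had r of -0.18 to 0.031. Arrays of unlike number were not compared, so these values cannot decide whether the numbers pair the arrays. The alternatives were quantile normalization, median centring, a filter on dim genes, averaged probe sets, single probe sets, trended robust eBayes, array weights, fits of 2 groups only, a replicate block and leaving out each array.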

Additional observations from a re-analysis of the deposited data

How the results depend on the processing

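Of 456 fits of single genes under the alternatives, 419 kept their direction and their side of the threshold, 14 lost and 6 gained a call, and 17 changed sign. Leaving out 1 array gave 4 to 5 of the 9 genes in expanded against control, 5 to 6 in TPA against control and 1 to 3 in expanded against TPA, and 11 to 14, 19 to 24 and 5 to 9 of the pathway genes. Between expanded and TPA arrays, where the main counts were 3 members and 10 pathway genes, a fit of these 2 groups alone gave 1 and 4, and the replicate block gave 1 and 4. The block changed 3 calls of the 9 genes: Egfr between TPA and control (0.33, adjusted p = 0.0907), and, between expanded and TPA, Tgfa (adjusted p = 0.0624) and Errfi1 (-1.13, adjusted p = 0.0548). Egfr in TPA against control was also lost with array weights (0.29, adjusted p = 0.0598) and in the fit of these groups alone (adjusted p = 0.0761). Btc passed with array weights in both comparisons with control (adjusted p = 0.0193 and 0.0416). The filter on dim genes leaves out Btc and gives no value for it.

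The sign changes all concern differences near 0 that passed in neither fit. Expanded against control turned for Egfr with the mean of its probe sets (-0.011), for Erbb2 without expanded replicate 2 (-0.0048; range over single arrays left out up to 0.039), and for Errfi1 with quantile normalization (0.0043), with array weights (0.049) and without control replicate 1 (0.092) or expanded replicate 3 (0.26; lowest -0.21). Expanded against TPA turned for Erbb3 with median centring (-0.0036) and without TPA replicate 2 (-0.032; highest 0.088), for Epgn with the replicate block (0.018) and without expanded replicate 1 (0.052) or 3 (0.053) or TPA replicate 1 (0.12; lowest -0.28), and for Btc with quantile normalization (-0.020), median centring (-0.023), the mean of its probe sets (-0.013) and without expanded replicate 1 (-0.073) or TPA replicate 1 (-0.15; highest 0.17). The cause was not tested. Without detection calls, signals such as those of Ereg and Btc near the background limit cannot be ordered, and the limit depends on the receptor genes being silent in these cells.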
